A study of Mus musculus with 6 samples.

Results

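The mechanistic target of rapamycin (mTOR) kinase works in 2 protein complexes, and the transcripts described here encode their subunits and the assembly factor Telo2. They are the 10 genes Mtor, Rptor, Rictor, Mlst8, Deptor, Akt1s1, Mapkap1, Prr5, Prr5l and Telo2, picked by symbol from a table of 24972 gene names. Each symbol matched 1 name, and all 10 were among the 13964 tested genes, those whose mean reached 10 normalised counts.

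RNA was sequenced from 6 cultures of mouse neural stem cells (NSCs), 3 labelled Tsc2 wild type/wild type (Tsc2 wt/wt) and 3 labelled with mutant alleles of Tsc2 (Tsc2 mut/mut), here called the mutant-labelled libraries. Tsc2 encodes tuberin, which with hamartin holds back mTORC1. Per the study's methods, mice of both genotypes carried the tamoxifen-activated recombinase Nestin-CRE-ERT2 and a tdTomato red fluorescent reporter in ROSA26, and the mut/mut mice carried the conditional allele Tsc2tm1.1Mjg on both chromosomes. Pups received tamoxifen, the ventricular-subventricular zone (V-SVZ) was dissected a week later, and the cells were grown in EGF and FGF and passaged. Cre acted only in cells that used the Nestin driver, so a culture of either genotype could hold cells that it did not reach. The study describes its NSCs after subculture as homogeneous and positive for the red reporter. The labels do not say how many pups went into each culture.

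mTORC1 is built from mTOR, raptor (Rptor) and MLST8, and it promotes translation and growth when nutrients and growth factors are present. mTORC2 joins mTOR and MLST8 to rictor (Rictor) and MAPKAP1, which is also called SIN1, and it phosphorylates AKT and related kinases. Raptor and rictor bind mTOR in a mutually exclusive way, so each one defines its complex, and in NSCs mTOR activity is tied to the exit from quiescence.

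In the mutant-labelled libraries the transcripts of the complexes did not move together. Prr5, Akt1s1, Mlst8, Telo2 and Rptor rose, Rictor, Deptor and Prr5l fell, and Mtor and Mapkap1 were not called. Thus 8 of 10 members were called at an adjusted p under 0.05, 5 higher and 3 lower, with limma and Benjamini-Hochberg adjustment over all genes tested. Of all genes tested, 75.5% were called, 36.8% higher and 38.7% lower, so a call by itself set no member apart. Values of the groups did not overlap for 9 of the 10 members, against 80.6% of all genes tested. The median log2 fold change of all genes was -0.07.

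**Figure D1:**
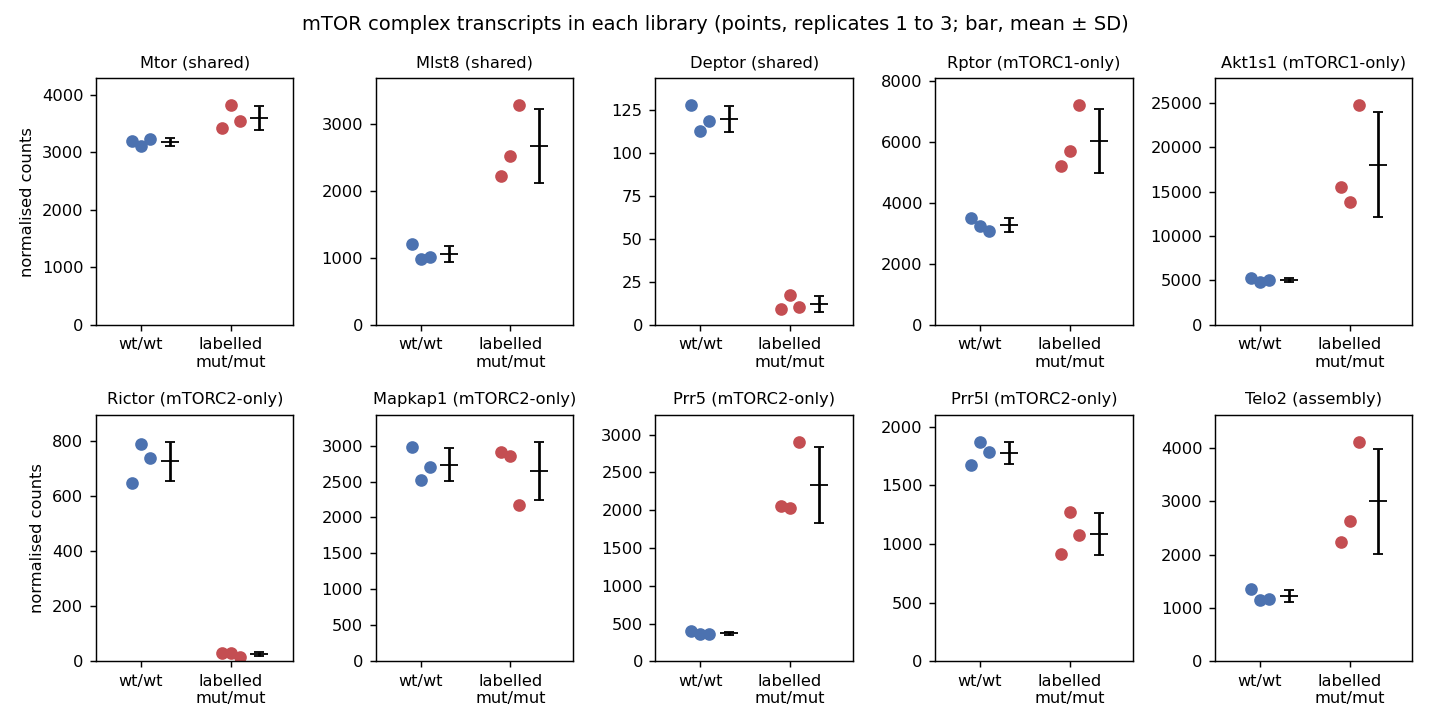
Normalised counts (y axis, from 0, a separate scale for each gene) of the 10 transcripts in the 3 wt/wt libraries (blue) and the 3 labelled mut/mut (red), replicates 1 to 3 from left to right, with the mean and SD of 3 beside them. Rictor and Deptor lie near 0 in the mutant-labelled libraries, Prr5 and Akt1s1 lie well above the wt/wt points, and Mapkap1 is the only member whose groups overlap.

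Several facts of the libraries bear on every value below. The deposited columns summed to between 29.0 and 30.4 normalised counts in units of 1000000 in wt/wt, and to between 45.0 and 55.7 such units in the mutant-labelled libraries. Estimated reads per library were 23.7 to 55.3 of the same units, and the shallowest library, labelled mut/mut replicate 3, had the highest total. Tsc2 itself, the targeted gene, measured 3231, 2934 and 2794 normalised counts in wt/wt and 4766, 5645 and 8210 in the mutant-labelled libraries. It was therefore higher in every library labelled mutant, by 1.02 ± 0.20 (SE) on the log2 scale (limma adjusted p = 0.00101). A value for the whole gene does not isolate the part that Cre removes, so it neither bears out nor contradicts the labels, and 10.9% of the exonic bases of Tsc2 are shared with Pkd1 on the opposite strand. The study also probed tuberin by western blot in lysates from its RNA isolations and reports that its NSC subcultures had lost Tsc2. That protein measurement was not analysed here.

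The cultures also differed in markers of cell type and sex. Of 9 NSC markers, 2 rose and 3 fell, Sox2 among them (15118, 15841 and 14785 normalised counts in wt/wt against 8288, 5968 and 5036), and their summed level was 298180 to 340650 in wt/wt and 287110 to 326580 in the mutant-labelled libraries. With column totals set equal, none of the 9 rose and 8 fell, and with the GC content and length trend removed 2 rose and 5 fell. All 5 oligodendrocyte precursor markers fell, from sums of 11527 to 17168 to sums of 1206 to 2102. For neuroblasts and neurons 4 of 6 markers fell and 1 rose, with sums of 14254 to 15953 in wt/wt and 3992 to 5424 in the mutant-labelled libraries. Microglial markers fell in 6 of 7, from sums of 352 to 1004 to sums of 31.0 to 59.7, and Cx3cr1, Aif1 and Ptprc were listed at 0 in every library labelled mut/mut. Pericyte and smooth muscle markers rose in 2 of 4 (sums of 155 to 231 against 5473 to 7703). Acta2 and Tagln made up nearly all of this sum, and the pericyte marker Rgs5, too low to be tested, averaged 12.7 in wt/wt and 0.31 in the mutant-labelled libraries. Ependymal markers rose in 2 of 3 (sums of 670 to 1012 against 5837 to 8460), a sum that was almost wholly Foxj1. Dynlrb2 averaged 19.6 and 56.2, and Ccdc153 was not called. Tmem212, too low to be tested, measured 0, 0 and 1.72 in wt/wt and 0 in every library labelled mut/mut. Endothelial markers rose in 1 of 2 (sums of 35.8 to 49.5 against 42.5 to 59.9). Kdr, the marker called, averaged 9.34 and 21.4. Too low to be tested, Pecam1 averaged 17.3 in wt/wt and 2.46 in the mutant-labelled libraries, and Cldn5 0.25 and 8.66. With column totals set equal no endothelial marker was called, 1 of 3 ependymal markers rose, and 5 of 6 neuroblast and neuron markers fell with none rising. Of all genes, 36.8% rose and 38.7% fell as deposited, and 20.6% and 54.5% with equal totals. The Y-linked genes Ddx3y, Uty, Kdm5d and Eif2s3y measured 360 to 1185 in wt/wt and 0 to 53.6 in the mutant-labelled libraries. Xist, which is transcribed from the inactive X chromosome, measured 1107, 87.9 and 68.9 in wt/wt and 351, 290 and 357 in the mutant-labelled libraries. Xist thus differed among the wt/wt cultures too and its groups overlapped, while genotype and the difference in Y-linked transcripts cannot be told apart. The part of these differences in the values of the subunits was not tested, and in a culture fewer cells of a type and less RNA per cell cannot be told apart.

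Rptor and Rictor moved in opposite directions. Rptor, the scaffold that brings substrates to mTORC1, measured 3506, 3247 and 3057 normalised counts in wt/wt and 5186, 5704 and 7204 in the mutant-labelled libraries. Every library labelled mutant lay above every wt/wt library, and Rptor rose by 0.87 ± 0.17 (SE) on the log2 scale (limma adjusted p = 7.8e-04). Rictor, the scaffold that defines mTORC2, measured 649, 792 and 739 in wt/wt and 31.1, 31.7 and 17.7 in the mutant-labelled libraries. The groups were far apart, the means differing 27.1-fold, and Rictor fell by 4.75 ± 0.27 on the log2 scale (limma adjusted p = 4.29e-07). This was the 180th lowest fold change of the 13964 genes tested. The low values rest on few reads, an estimated 25.7, 34.4 and 7.50 in the 3 libraries labelled mut/mut.

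The sequences just upstream of the start sites of Rptor and Rictor are shown because these subunits define the complexes and their transcripts parted. They are RefSeq windows of 250 bases on GRCm38.p6, 5′ to 3′ on the gene's strand, and capitals mark matches on either strand to the GC box GGGCGG or the CCAAT box CCAAT.
Rptor, chr11:119602655-119602904, plus strand: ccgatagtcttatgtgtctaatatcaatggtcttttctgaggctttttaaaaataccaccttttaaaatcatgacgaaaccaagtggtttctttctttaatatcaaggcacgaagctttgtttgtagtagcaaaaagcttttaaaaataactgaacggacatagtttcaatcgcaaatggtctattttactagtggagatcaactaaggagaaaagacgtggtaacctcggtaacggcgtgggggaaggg
Rictor, chr15:6708131-6708380, plus strand: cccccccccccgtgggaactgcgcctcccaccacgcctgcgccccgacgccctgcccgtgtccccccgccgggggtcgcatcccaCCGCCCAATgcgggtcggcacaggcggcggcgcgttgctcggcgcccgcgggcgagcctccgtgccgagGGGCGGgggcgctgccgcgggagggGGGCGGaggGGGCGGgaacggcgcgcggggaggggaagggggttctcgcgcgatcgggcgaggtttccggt
The Rptor window has a GC content of 37.6% with 9 CpG and holds neither motif. The Rictor window has a GC content of 81.2% with 40 CpG, 4 GC boxes and 1 CCAAT box, which shares bases with a GC box. Of 27025 promoter windows of the same length, 32.9% held GGGCGG and 34.5% held CCAAT, with a median GC content of 52.0% and a median of 6 CpG. The E-box CACGTG, searched on both strands, was in 6.05% of all windows and in none of the 9 members with a window. Deptor had none in the table used.

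Rptor lies at chr11:119602905-119899576 on the plus strand and Rictor at chr15:6708379-6800401 on the plus strand (mm10, GENCODE M21). Coordinates of the other members are from the same annotation, which lists all 10 as protein-coding. Their longest transcripts differ in make-up, 6.59 kb with 56.5% GC for Rptor and 9.31 kb with 42.5% GC for Rictor. The ratio of Rptor to Rictor within a library is hardly touched by the factor that scales the library, the pseudocount of 1 aside. On the log2 scale it was 2.43, 2.03 and 2.05 in wt/wt and 7.34, 7.45 and 8.59 in the mutant-labelled libraries. The ratio was thus higher in every library labelled mutant, by 5.62 ± 0.42 (SE) or 49.2-fold, and by 5.61 with column totals set equal. An exact two-sided permutation test gave p = 0.1, the smallest that 3 against 3 libraries can give, and p = 0.1 after adjustment over the 5 pairs compared.

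**Figure D2:**
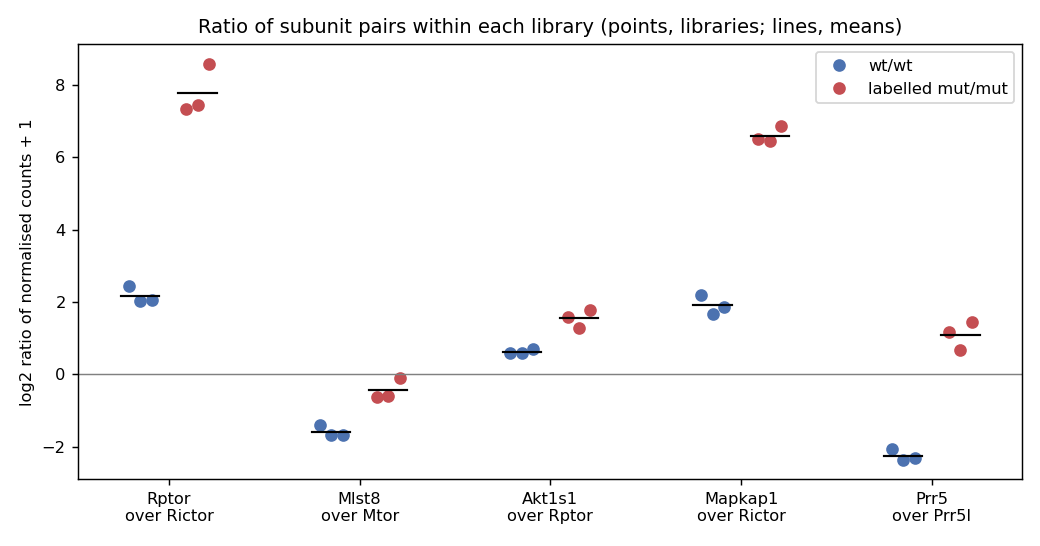
Log2 ratio of normalised counts plus 1 (y axis) for 5 pairs of subunits within each library, 3 wt/wt (blue) and 3 labelled mut/mut (red), with black lines at the means. All 5 ratios are higher in the mutant-labelled libraries, and the ratio of Rptor to Rictor differs most, from a mean of 2.17 to a mean of 7.79.

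Among the shared subunits, Mtor was not called while Mlst8 rose and Deptor fell. Mtor, the kinase itself (chr4:148448611-148557683, plus strand), measured 3195, 3102 and 3227 normalised counts in wt/wt and 3422, 3825 and 3540 in the mutant-labelled libraries. Its groups did not overlap, but the fold change of 0.18 ± 0.14 (SE) on the log2 scale did not pass the test (limma adjusted p = 0.272). It was also the member with the least spread, with a coefficient of variation of 2.05% in wt/wt and 5.76% in the mutant-labelled libraries.

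Mlst8, a small beta-propeller protein that sits on the kinase domain in both complexes (chr17:24473551-24479078, minus strand), measured 1198, 976 and 1010 in wt/wt and 2217, 2509 and 3279 in the mutant-labelled libraries. Every library labelled mutant was higher, and Mlst8 rose by 1.32 ± 0.19 on the log2 scale (limma adjusted p = 9.92e-05). Its value is uncertain, because 25.6% of its exonic bases overlap Bricd5 on the opposite strand and the library kit did not keep the strand. The log2 ratio of Mlst8 to Mtor was -1.59 ± 0.15 (SD, n = 3) in wt/wt and -0.45 ± 0.29 (SD, n = 3) in the mutant-labelled libraries, a difference of 1.14 ± 0.19 (SE) with an exact permutation p of 0.1.

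Deptor, an inhibitor that binds mTOR in both complexes (chr15:55112317-55259271, plus strand), measured 128, 112 and 118 in wt/wt and 8.98, 17.2 and 10.1 in the mutant-labelled libraries. The means differed 9.87-fold with no overlap, and Deptor fell by 3.25 ± 0.32 on the log2 scale (limma adjusted p = 9.5e-06). It was the lowest member in either group, and an estimated 7.44, 18.7 and 4.28 reads lay behind its values in the mutant-labelled libraries.

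Akt1s1, the other subunit of mTORC1 alone, encodes PRAS40, a raptor-bound inhibitor of mTORC1 that AKT phosphorylates. The gene (chr7:44848991-44855421, plus strand) measured 5310, 4839 and 5006 in wt/wt and 15571, 13794 and 24778 in the mutant-labelled libraries. All 3 libraries labelled mutant were far above wt/wt, replicate 3 most of all, and Akt1s1 rose by 1.79 ± 0.21 on the log2 scale (limma adjusted p = 2.94e-05). Both subunits of mTORC1 alone thus rose, with a median log2 fold change of 1.33, against 36.8% of all genes called higher. With column totals set equal 1 of the 2 was called higher (median 0.62), against 20.6% of all genes. With the GC content and length trend removed both were called higher (median 0.95), against 41% of all genes. Akt1s1 also differed relative to Rptor, the log2 ratio of the pair being 0.63 ± 0.07 (SD, n = 3) in wt/wt and 1.55 ± 0.26 (SD, n = 3) in the mutant-labelled libraries (exact permutation p = 0.1).

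The 4 subunits of mTORC2 alone went separate ways as deposited, with 1 higher, 2 lower and 1 not called and a median log2 fold change of -0.39. Of all genes 36.8% were higher and 38.7% lower. With column totals set equal 1 was higher and 3 lower (median -1.10), against 20.6% and 54.5% of all genes. With the GC content and length trend removed 1 was higher, 1 lower and 2 not called (median -0.03), against 41% and 29%. Mapkap1, the subunit that recruits the AKT substrate (chr2:34406771-34624950, plus strand), measured 2981, 2523 and 2695 in wt/wt and 2911, 2854 and 2176 in the mutant-labelled libraries. These ranges overlapped, and the fold change was -0.05 ± 0.17 on the log2 scale (limma adjusted p = 0.778). The log2 ratio of Mapkap1 to Rictor was 1.91 ± 0.27 (SD, n = 3) in wt/wt and 6.61 ± 0.23 (SD, n = 3) in the mutant-labelled libraries, with no overlap and an exact permutation p of 0.1.

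Prr5 and Prr5l encode the related proteins PROTOR1 and PROTOR2, which bind rictor, and their transcripts moved apart. Prr5 (chr15:84669620-84703673, plus strand) measured 398, 362 and 357 in wt/wt and 2050, 2024 and 2907 in the mutant-labelled libraries. Every library labelled mutant was higher, the means differing 6.25-fold, and Prr5 rose by 2.62 ± 0.19 on the log2 scale (limma adjusted p = 1.69e-06), the 109th highest fold change of all genes tested.

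Prr5l (chr2:101714285-101883027, minus strand) measured 1675, 1867 and 1787 in wt/wt and 914, 1272 and 1074 in the mutant-labelled libraries. All libraries labelled mutant were lower, and Prr5l fell by 0.72 ± 0.17 on the log2 scale (limma adjusted p = 0.00312). The log2 ratio of Prr5 to Prr5l was -2.25 ± 0.16 (SD, n = 3) in wt/wt and 1.09 ± 0.39 (SD, n = 3) in the mutant-labelled libraries, so the ratio turned from below 1 to above 1 in every library labelled mutant (exact permutation p = 0.1).

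Telo2 is not a stable subunit of either complex. It belongs to the TTT co-chaperone, which with the R2TP complex folds and assembles mTOR and the other kinases of its family. Telo2 (chr17:25099570-25115967, minus strand) measured 1364, 1159 and 1179 in wt/wt and 2249, 2630 and 4124 in the mutant-labelled libraries. The groups did not overlap, and Telo2 rose by 1.24 ± 0.22 on the log2 scale (limma adjusted p = 5.05e-04).

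All 10 members had a higher coefficient of variation in the mutant-labelled libraries, 5.76% to 37.1%, than in wt/wt, 2.05% to 11.3%. All 5 members that rose were highest in replicate 3 labelled mut/mut, the shallowest library and the one with the highest column total. The share of all genes with either trait was not computed, so neither count sets the members apart. Without replicate 3 labelled mut/mut the log2 fold changes were 0.74 for Rptor, 1.16 for Mlst8, 1.54 for Akt1s1, 2.45 for Prr5 and 0.98 for Telo2. All 5 were still called.

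Levels of different genes were compared per kilobase of the longest transcript. In wt/wt the order of mean normalised counts per kb ran from Akt1s1 at 2788 through Mapkap1 at 879, Rptor at 496, Prr5l at 414, Mtor at 371, Telo2 at 350, Mlst8 at 275, Prr5 at 204 and Rictor at 78.0 to Deptor at 14.0. Of these neighbours, Mtor and Telo2 alone overlapped in their 3 libraries. In the mutant-labelled libraries Akt1s1 was again first at 9960 ± 3254 (SD, n = 3), and Prr5 came next at 1272 ± 275 (SD, n = 3). The level per kb was then 915 for Rptor, 851 for Mapkap1, 850 for Telo2 and 692 for Mlst8, each overlapping the next. Mtor followed at 420 per kb and Prr5l at 253 per kb, and Rictor at 2.88 overlapped Deptor at 1.42.

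The order of the fold changes followed the base composition of the transcripts. Over the 10 members Spearman's rho between log2 fold change and the GC content of the longest transcript was 0.94, and it was 0.59 over the 13813 tested genes with a known GC content. With transcript length rho was -0.76 over the members and -0.44 over all those genes. Genes of 1 set of libraries are not independent replicates, so no p is given. Rictor (42.5% GC) and Deptor (44.3% GC, 8.55 kb) lay below the median of tested genes, 50.4% GC, and Prr5 (61.1% GC, 1.83 kb) and Akt1s1 (61.8% GC, 1.81 kb) lay far above it. Mtor, with a transcript of 8.56 kb but 54.2% GC, lay between them.

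**Figure D3:**
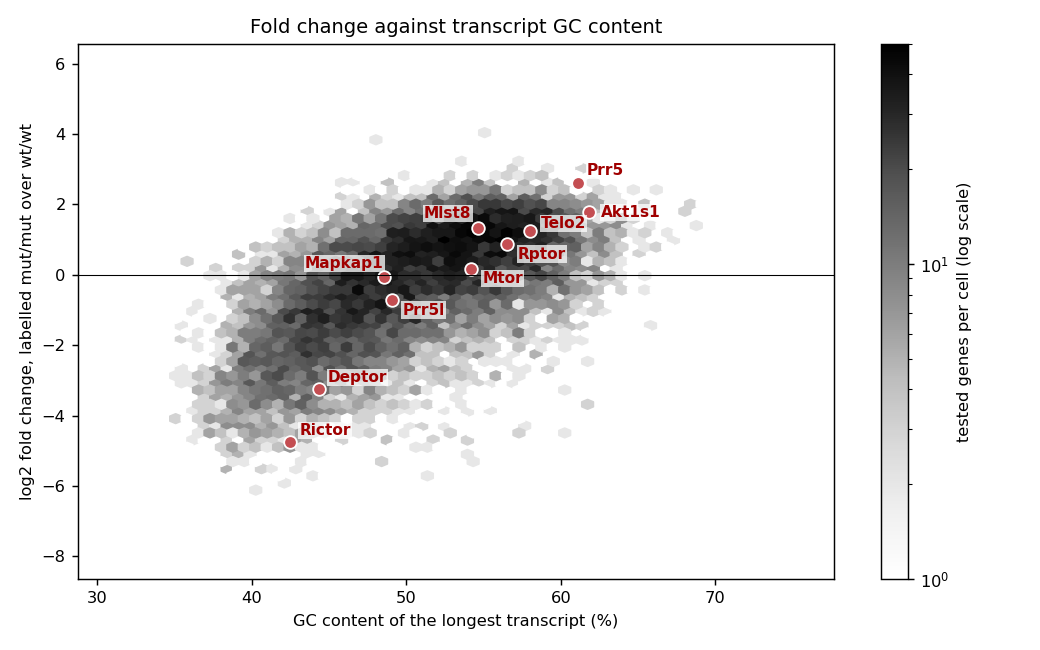
Log2 fold change of the mutant-labelled libraries over wt/wt (y axis) against the GC content of the longest transcript in percent (x axis) for tested genes, shown as grey cells on a log scale of gene number, with the 10 members as red points. Members rise from Rictor at 42.5% GC to Akt1s1 at 61.8% GC and lie within the range of the other genes.

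When a trend of each library's log2 values with GC content and length was removed, the changes of the members at both ends shrank. Rictor then fell by 1.98 on the log2 scale (limma adjusted p = 1.55e-05), Deptor fell by 0.96 (limma adjusted p = 0.0243), and Prr5 rose by 1.60 and Akt1s1 by 0.78. Mtor was then called, at 0.82 ± 0.11 (SE) on the log2 scale (limma adjusted p = 9.97e-05), and Prr5l was not, at -0.26 (limma adjusted p = 0.165). The calls were 6 higher and 2 lower, against 69.9% of all genes called, 41% higher and 29% lower. The median of all genes shifted to 0.15, and relative to it Rictor lay at -2.13, Rptor at 0.97, Mtor at 0.67 and Mapkap1 at 0.04.

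Of the pairs, Rptor over Rictor then differed by 3.10, Mapkap1 over Rictor by 2.17 and Prr5 over Prr5l by 1.86 on the log2 scale. Mlst8 over Mtor differed by 0.13 (exact permutation p = 0.5), and Akt1s1 over Rptor turned to -0.35. The higher ratios of Mlst8 to Mtor and of Akt1s1 to Rptor therefore depended on whether this trend was kept.

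Setting the column totals equal moved the fold change of every member down, and the median of all genes to -0.77. The calls were then 4 higher and 5 lower, against 75.1% of all genes called, 20.6% higher and 54.5% lower. Mtor turned to -0.53 (limma adjusted p = 0.00714) and Mapkap1 was called at -0.77 (limma adjusted p = 0.00973), while Rptor at 0.16 was not called (limma adjusted p = 0.209). Relative to the median of all genes Mtor lay at 0.24, Rptor at 0.93, Mapkap1 at 0.01 and Rictor at -4.67. The directions of Mtor and Mapkap1 thus hung on the scaling. Rictor, Deptor and Prr5l were lower, and Rptor, Mlst8, Akt1s1, Prr5 and Telo2 higher, under all 3 scalings, although the calls of Rptor and Prr5l did not hold in each.

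**Figure D4:**
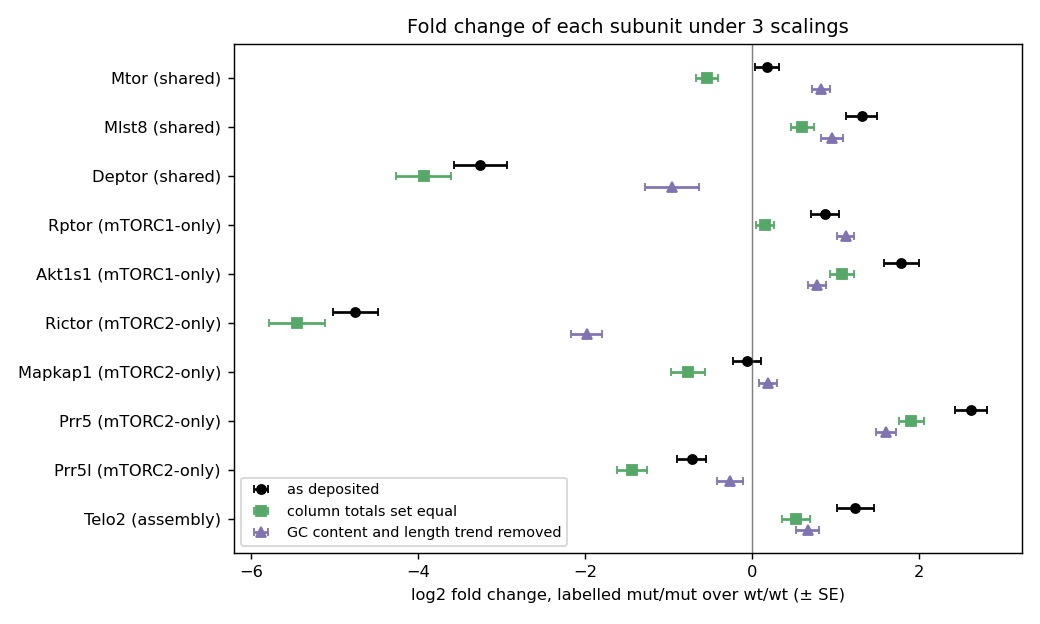
Log2 fold change with SE (x axis) of the 10 members (rows) as deposited (circles), with column totals set equal (squares) and with the GC content and length trend removed (triangles), 3 libraries per group. Rictor ranges from -5.45 to -1.98 and stays lowest in each setting, and Mtor lies on both sides of 0, at -0.53, 0.18 and 0.82.

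As deposited, Mtor was not called, whereas the 5 other kinases of its family fell, against 38.7% of all genes tested. With column totals set equal all 6 were called lower, Mtor included at -0.53 (limma adjusted p = 0.00714), against 54.5% of all genes. The contrast in calls thus hung on the scaling. Proteins of this family share a large related kinase domain. The 6 with Mtor had a median log2 fold change of -3.65. Atr, the kinase that senses replication stress, measured 614, 699 and 752 in wt/wt and 33.9, 23.6 and 25.9 in the mutant-labelled libraries. These groups were far apart, and the log2 fold change was -4.59 ± 0.23 (SE, limma adjusted p = 2.66e-07). Atm, which responds to DNA breaks, changed by -4.11, Smg1, a kinase of nonsense-mediated decay, by -4.07, Prkdc, which acts in DNA end joining, by -3.24 and Trrap, a scaffold without kinase activity, by -0.91. After removal of the GC content and length trend Prkdc at -0.39 (limma adjusted p = 0.145) and Trrap at 0.10 (limma adjusted p = 0.449) were no longer called. Of the 6, Mtor was then called higher at 0.82 (limma adjusted p = 9.97e-05). Atm at -1.31, Atr at -1.61 and Smg1 at -1.42 were still called lower. Of all genes 41% were higher and 29% lower in that setting. A difference between Mtor and its relatives was not itself tested.

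As deposited and with column totals set equal, the assembly factors around Telo2 moved in both directions. Of the other 7, from TTT and R2TP with the adaptor Wac, 4 rose and 2 fell, against 36.8% and 38.7% of all genes. With column totals set equal 3 were higher and 3 lower, against 20.6% and 54.5% of all genes. Tti2 was then among the lower ones at -0.49 (limma adjusted p = 0.0407), and Tti1 at 0.07 was not called (limma adjusted p = 0.644). Ruvbl1 and Ruvbl2, the ATPases of R2TP, rose by 1.39 and 1.66 on the log2 scale, Pih1d1 rose by 1.90 and Tti1, a direct partner of Telo2, rose by 0.79. As deposited, Tti2 was not called at 0.23 (limma adjusted p = 0.318). Rpap3, another R2TP subunit, fell by 0.75 and Wac fell by 1.89, although Wac was higher by 0.37 after removal of the GC content and length trend. In that setting 7 of the 8 factors, counting Telo2, were called higher and Rpap3 alone was lower. The shares over all genes were then 41% and 29%.

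**Figure D5:**
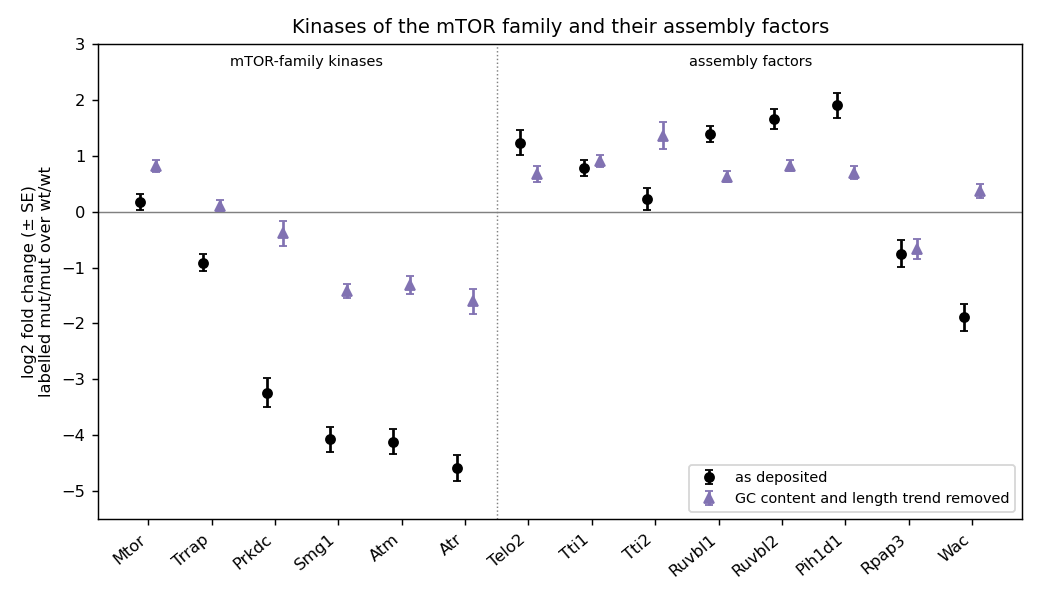
Log2 fold change with SE (y axis) of 6 kinases of the mTOR family (left of the dotted line) and 8 assembly factors (right), as deposited (circles) and with the GC content and length trend removed (triangles), 3 libraries per group. As deposited, Mtor at 0.18 lies above its relatives, which range from -4.59 to -0.91, and the assembly factors range from -1.89 for Wac to 1.90 for Pih1d1.

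Genes that feed into mTORC1 moved in both directions. Of 32 upstream genes 13 rose, 15 fell and 4 were not called, with a median log2 fold change of -0.04, against 36.8% higher, 38.7% lower and a median of -0.07 over all genes. With column totals set equal 7 were higher and 17 lower (median -0.75), against 20.6% and 54.5% of all genes (median -0.77). Removal of the GC content and length trend gave 11 higher and 11 lower (median 0.07), against 41% and 29% (median 0.15). Sesn2, a leucine sensor that restrains mTORC1, rose by 2.30, and Sec13, a subunit of the GATOR2 complex, rose by 1.68. Fnip1, a partner of folliculin, fell by 4.25, and Rragd, a Rag GTPase that docks mTORC1 on lysosomes, fell by 2.81.

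Of 20 direct targets of the complexes tested, 11 rose, 6 fell and 3 were not called, with a median log2 fold change of 0.56, against 36.8% higher and 38.7% lower over all genes. The balance turned with column totals set equal, to 5 higher and 9 lower (median -0.15). Shares over all genes moved the same way, to 20.6% and 54.5% (median -0.77). After removal of the GC content and length trend, 8 targets were higher and 5 lower (median 0.03). The shares over all genes were then 41% and 29% (median 0.15). Eif4ebp1, the translation repressor that mTORC1 phosphorylates, measured 4522, 5118 and 5001 in wt/wt and 15589, 14808 and 24756 in the mutant-labelled libraries. The groups did not overlap, and it rose by 1.88 on the log2 scale. Rps6kb1, which encodes the S6 kinase S6K1, measured 1550, 1381 and 1350 in wt/wt and 223, 186 and 122 in the mutant-labelled libraries. It was lower in every library labelled mutant and fell by 3.04 on the log2 scale, and it was not called after removal of the GC content and length trend (limma adjusted p = 0.248). Akt1, whose product mTORC2 phosphorylates, rose by 1.85 on the log2 scale.

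Other genes with profiles like those of the central subunits were sought among the 11417 tested genes whose mean reached 100, by the Euclidean distance between log2 values over the 6 libraries, each gene centred on its own mean. Mtor was nearest to Casp2, Mcmbp and Zbtb39, at distances of 0.11, 0.11 and 0.12. Rptor was nearest to Lman2l, Ppp1r10 and Map7d1 (0.08, 0.09 and 0.10). For Rictor the nearest genes were farther away, Spag9 at 0.30, Grik3 at 0.34 and Pcdh17 at 0.42. These distances describe likeness in 6 libraries that fall into 2 groups.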

How the data were processed

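Poly(A) RNA libraries of 6 NSC cultures, 3 per genotype, were sequenced in pairs with a kit that did not keep the strand. Reads were trimmed, aligned to mm10 with STAR, and the authors then ran DESeq2 on genotype. The counter, annotation and strand setting are not given in the sources used here. What the authors deposited is a signal, gene counts normalised by DESeq2, for 24972 names, of which 6503 were at 0 throughout. They were not whole reads. Only 28.0% to 57.7% of low values lay within 0.1 of a multiple of the value judged to be 1 read, so no count test was run. Dividing each total by that value gave the estimated reads, which are approximate.

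Genes whose mean over the libraries reached 10 (13964 in all) were taken as log2(value + 1) and fitted with limma 3.58.1 in R 4.3.3 on genotype, with robust empirical Bayes moderation and a mean-variance trend. Tests were two-sided, Benjamini-Hochberg adjusted over all genes tested, and called at an adjusted p under 0.05. Fold changes on this scale understate those of low genes. In data simulated over 13964 genes, 100 genes were changed by 2 on the log2 scale and 100 by 1. Of these 75% and 29% were called, with 0.0654% of unchanged genes called. Far more genes, 75.5%, were called in the real data, so the simulated shares do not give the sensitivity of the real comparison. Ratios within a library were compared with exact permutation tests, adjusted over 5 pairs. The GC content and length of the longest transcript came from GENCODE M21 for 98.9% of tested genes, and their trend was a spline with 5 degrees of freedom. Python 3.11.15 was used for the rest.

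The members, lists and tests were chosen with earlier results of these data known. Named genes were all members, Tsc2, the assembly and kinase lists, at most 2 genes per direction with the smallest adjusted p of the upstream and target lists, cell type markers, and the 3 nearest profiles of Mtor, Rptor and Rictor. A gene of the target list that this rule selects is not reported here. For wt/wt replicate 2 the column's name and the label are 1 digit apart. The genotype is in the name, so the doubt concerns the replicate number alone. The cultures are separate samples in the labels, but nothing more is said of how they were derived, so p-values measure the spread between these samples. Alternatives were other pseudocounts, filters, scalings and moderation, a replicate block, and leaving out each library.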

Additional observations from a re-analysis of the deposited data

How the results depend on the processing

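The number of members called was 8 without each library in turn, 5 higher and 3 lower each time. In those fits 9611 to 10797 of the 13964 genes tested were called. Under the other settings 7 to 9 members were called. The 7 came with a mean of at least 100, where Deptor was not tested and 8984 of 11417 genes were called. The fit with a replicate block again called 8 members, 5 higher and 3 lower, and 10576 of all 13964 genes. The replicate numbers did not pair the cultures, since same-numbered deviations correlated at 0.11, -0.0037 and 0.07 and not every library correlated best with its own number. With column totals set equal, 5 members were called lower, against 54.5% of all genes. Mtor then turned to -0.53, and the log2 fold change of Tsc2 was 0.31 with no call (limma adjusted p = 0.0812). With the GC content and length trend removed, Mapkap1 turned to 0.19, with or without the replicate block. The log2 ratio of Akt1s1 to Rptor turned to -0.35 with the trend removed, and that of Mlst8 to Mtor shrank to 0.13. Ratios were not fitted with a block. Mapkap1, which was never called when a library was left out, ranged from -0.13 to 0.080 on the log2 scale, turning above 0 without wt/wt replicate 1 or replicate 3 labelled mut/mut. Deptor gave no value with a mean of at least 100. The cause of these shifts was not tested. Depth limits Rictor and Deptor most, since few reads lay behind them in the libraries labelled mut/mut.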
